A study of Saccharomyces cerevisiae with 21 samples.

Results

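*HIS4*::*LEU2* and *leu2*::*hisG* are a pair of artificial recombination sites on the left arm of chromosome III of the SK1 strain of budding yeast. At *HIS4*::*LEU2*, *LEU2* DNA sits beside *HIS4*, a gene of histidine synthesis. At *leu2*::*hisG*, the natural *LEU2* gene, which encodes an enzyme of leucine synthesis, is interrupted by bacterial *hisG* DNA. Members were chosen by position alone, as every hotspot of a common template that overlapped either region, and there were 6 such hotspots of 3290 in the genome, 3 at each site. A hotspot here is a stretch in which Spo11-linked DNA ends were above a fixed cut-off.

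The study asked how the length of meiotic prophase modulates the inhibition of neighbouring breaks by Tel1. CC-seq, which maps DNA ends that carry covalently bound Spo11, was read in 21 libraries taken 6 h after the induction of sporulation. Libraries that shared a replicate number were summed, which left 5 replicates of sae2Δ (numbered 1, 2, 3, 5 and 7), 4 of sae2Δ ndt80Δ, 4 of sae2Δ tel1Δ, 5 of sae2Δ ndt80Δ tel1Δ and 1 control of sae2Δ ndt80Δ *spo11-Y135F*. The methods call replicates independent biological ones, without saying how lettered libraries of a number relate. All strains were diploid SK1 and carried sae2Δ, *his4X*::*LEU2*, *leu2*::*hisG*, *arg4-nsp*, *ura3*, *lys2* and *ho*::*LYS2*. The Spo11-active strains also carried *nuc1*::*LEU2*, which the control lacked. *NDT80* was replaced by *LEU2* in every ndt80Δ strain, so loss of Ndt80 and a further copy of *LEU2* cannot be told apart by design. *TEL1* was replaced by a hygromycin resistance cassette.

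Spo11 cuts DNA as a topoisomerase-like enzyme and stays attached to the 5′ ends, and without Sae2 these ends are not processed, so each break leaves a Watson and a Crick end that can be counted at its base. Tel1, the yeast counterpart of ATM, is activated by breaks and inhibits further breaks nearby. Ndt80 is the transcription factor that lets cells leave prophase, and ndt80Δ cells remain in a state in which Spo11 can go on cutting.

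Depth was 1562673 to 8705712 reads per Spo11-active library and 3622725 reads in the control. Reads over *NDT80* and *TEL1* were 0 to 1 and 0 to 29 in the Spo11-active libraries that lack the gene (3 over *NDT80* in the control), against 20 to 124 and 66 to 976 in the Spo11-active libraries that have it. Over *SAE2*, which all strains lack, libraries had 0 to 5 reads except 1 of the 2 libraries of sae2Δ replicate 7, with 8 reads or 0.476 times background. Without that replicate the left *leu2*::*hisG* peak lost its call given below. Hotspots held 37.3% to 87.0% of the reads of a Spo11-active library and 9.52% of those of the control. sae2Δ ndt80Δ replicates 1 and 3 and sae2Δ ndt80Δ tel1Δ replicate 4 stood apart by a background of 47.3 to 55.9 RPM per kb in long genes, where RPM are reads scaled to the nuclear reads outside the rDNA of the library, and the replicates of time course 17 (sae2Δ ndt80Δ 4 and sae2Δ ndt80Δ tel1Δ 5) by the lowest background of their genotypes, 6.66 and 2.36.

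On the coordinates of the files' genome build, SacCer3H4L2, the strong left hotspot of *HIS4*::*LEU2*, here called DSB I, ran from 65179 to 66151 of chromosome III (973 bp) with its summit at 65745. The strong right hotspot, DSB II, ran from 67499 to 68830 (1332 bp) with its summit at 67955, 2210 bp from that of DSB I. A weak middle hotspot lay between them at 66835 to 67112. At *leu2*::*hisG* a left peak spanned 93815 to 94612 with its summit at 94157, a broad right peak 95056 to 96487 with its summit at 95952, and a weak edge peak 97140 to 97578. The summits of the left and right peaks were 1795 bp apart, and 26202 bp separated DSB II from the left *leu2*::*hisG* peak. The annotation used here lacks the inserts, so the peaks are not placed on exons or promoters.

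**Figure D1:**
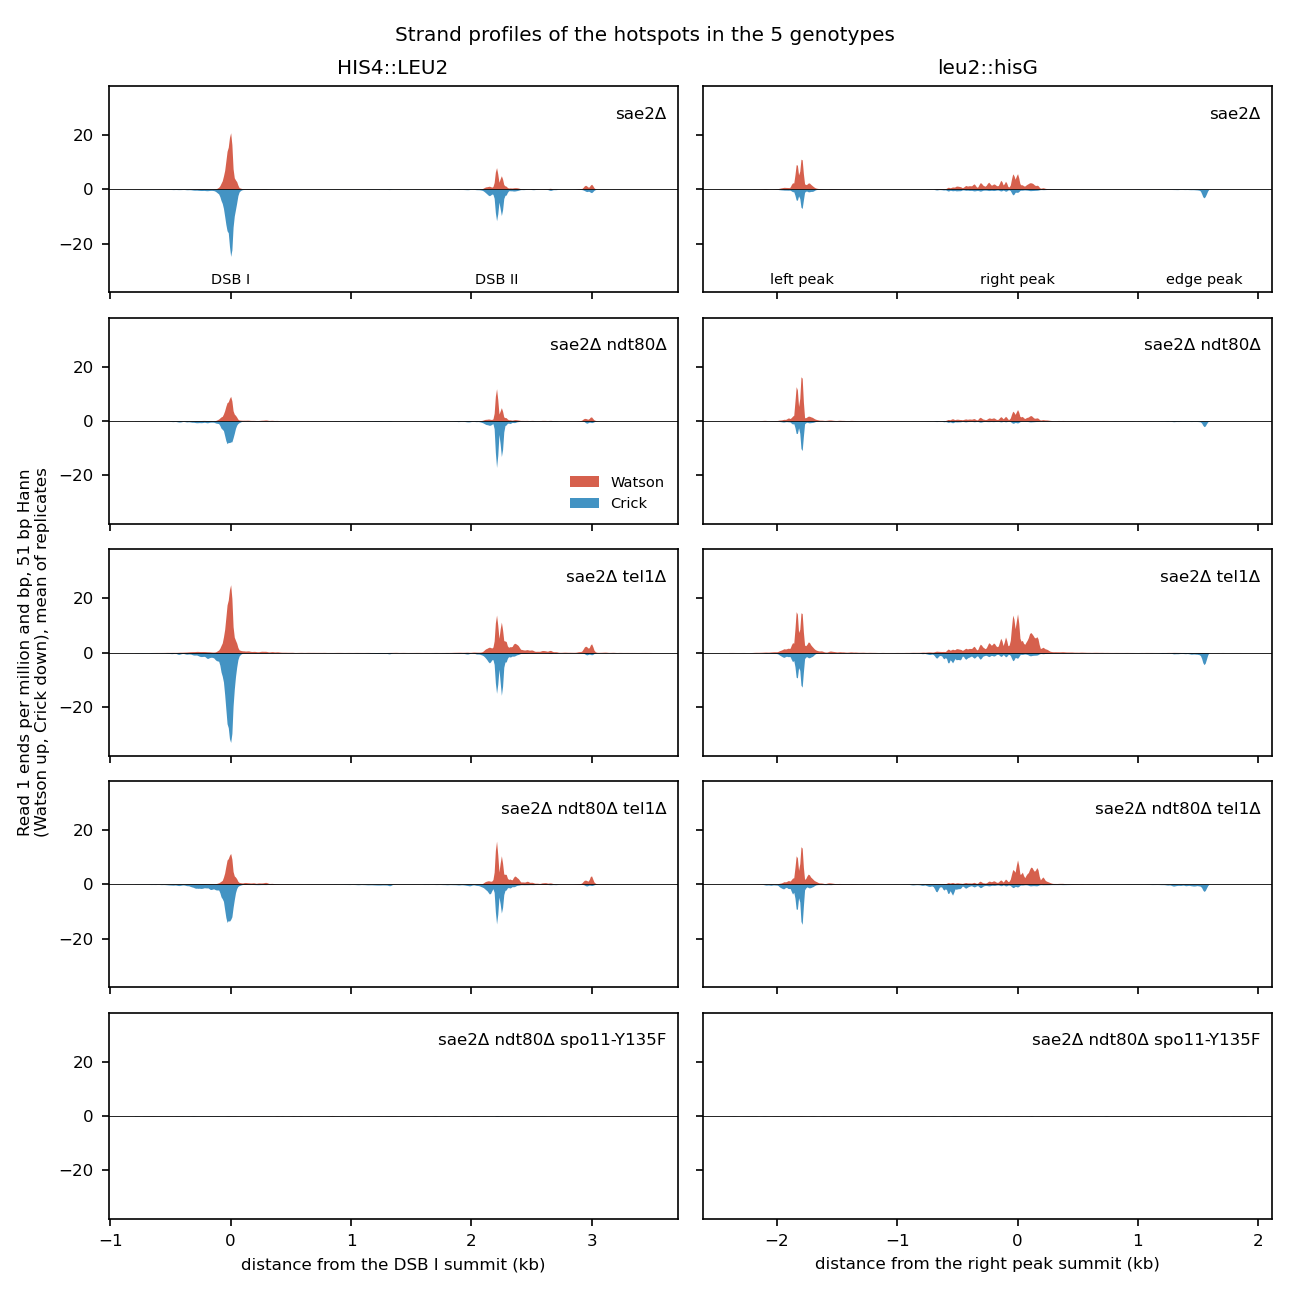
Mean profiles of the 5 genotypes at *HIS4*::*LEU2* (left, distance from the DSB I summit in kb) and *leu2*::*hisG* (right, distance from the right peak summit in kb), with Watson ends upwards and Crick ends downwards in RPM per bp after 51 bp smoothing. DSB I and DSB II are compact and 2.21 kb apart, the right *leu2*::*hisG* peak is broad, and the control shows no peak on this scale.

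Parts of both sites held the same counts in mirror image. Of 69 windows of 200 bp across *HIS4*::*LEU2*, 21 had a mirrored partner at *leu2*::*hisG* on 2 axes, with a correlation of 0.565 or more. In the other windows the best mirrored match had a correlation of at most 0.44 over 400 points, 1 per base and strand. The highest of these, the windows starting at 67100 and 67200, also matched on 1 of the 2 axes. At the strongest base pair of DSB II, 21461 Watson ends at 67954 faced 20559 Crick ends at 94158, and 23125 Crick ends at 67955 faced 23381 Watson ends at 94157. The next pair gave 22100 Crick ends at 67997 against 22061 Watson ends at 94115. These bases belong to DSB II and to the left *leu2*::*hisG* peak, whose cores were thus listed with nearly equal counts on opposite strands.

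Within 100 bp of the DSB II summit, the share of the Crick ends listed at *HIS4*::*LEU2* rather than at the mirrored bases was 50.2% ± 0.35 in sae2Δ, 49.9% ± 0.64 in sae2Δ ndt80Δ, 49.8% ± 0.22 in sae2Δ tel1Δ and 49.6% ± 0.46 in sae2Δ ndt80Δ tel1Δ (SD, n = 5, 4, 4 and 5). Watson shares were 52.98%, 49.9%, 52.4% and 51.7%. To the right of this core the Watson share was 65.4%, 57.9%, 69.0% and 64.9%, while the Crick share stayed between 49.2% and 51.1%. The right edge of DSB I mirrored the edge peak in the same way for Watson ends, with shares of 49.2% to 50.6%, but not for Crick ends, of which 78.5% to 88.7% were listed at DSB I. In the core, breaks at DSB II and at the left *leu2*::*hisG* peak therefore cannot be told apart by these counts. Whether ends from the *LEU2* copies at *nuc1*::*LEU2* and ndt80Δ::*LEU2* were also listed in these peaks was not tested. The stretches with no mirrored copy held 87.3% to 97.3% of the DSB I reads and 89.4% to 98.7% of the reads of the right *leu2*::*hisG* peak in the Spo11-active replicates.

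**Figure D2:**
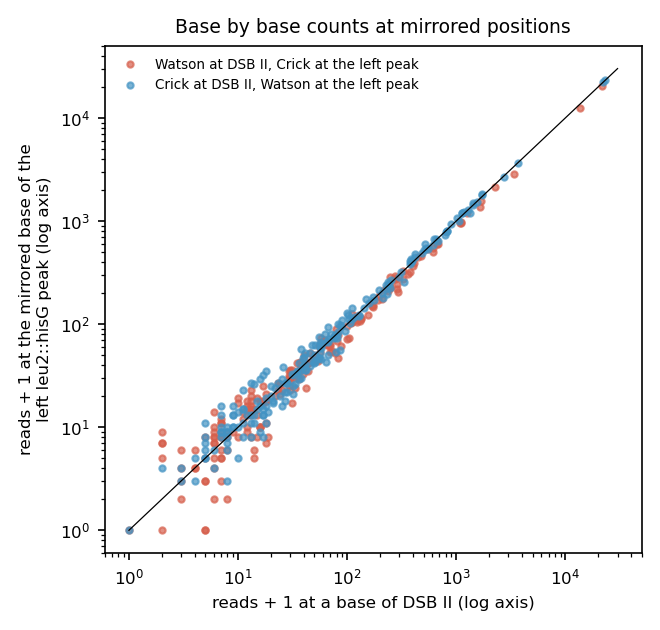
Each point is a base within 100 bp of the DSB II summit, with its reads plus 1 on the x axis and the reads plus 1 at the mirrored base of the left *leu2*::*hisG* peak on the opposite strand on the y axis (both log axes, all Spo11-active libraries summed). The line marks equal counts, and the 3 strongest bases lie on it at about 22100, 23125 and 21461 reads.

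RPM are shares of the reads of a library, so strengths, rises and falls here are relative and not absolute frequencies of breaks. DSB I was the strongest hotspot of the pair in sae2Δ and gave its highest values in sae2Δ tel1Δ. In RPM its sae2Δ replicates had 2853, 3473, 3245, 3871 and 3840. The sae2Δ ndt80Δ replicates had 1296, 3131, 1638 and 1192, and the sae2Δ tel1Δ replicates had 6351, 5212, 4219 and 4806. In sae2Δ ndt80Δ tel1Δ it had 3519, 4099, 2037, 2086 and 2223. Every sae2Δ tel1Δ replicate was above every sae2Δ replicate, and in sae2Δ ndt80Δ only replicate 2 reached the range of sae2Δ. The control had 76.3 RPM over the same bases, 1.00 times its background in long genes, while Spo11-active replicates were at 23.8 to 969 times theirs.

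By edgeR's quasi-likelihood test over all 3290 hotspots with Benjamini-Hochberg adjustment, loss of Tel1 with Ndt80 present changed DSB I by 0.57 ± 0.27 on the log2 scale (SE, adjusted p = 0.107), and loss of Tel1 without Ndt80 by 0.62 ± 0.28 (adjusted p = 0.105). The first of these passed the threshold under other scalings, at 0.86 with the hotspot total as library size and 0.99 with TMM factors. DSB I fell on loss of Ndt80 without Tel1, by 0.88 ± 0.27 on the log2 scale (adjusted p = 0.0302), from a mean of 5147 ± 900 to 2793 ± 953 RPM. Without the numbered time courses that difference was -0.43 (adjusted p = 0.220), and with the time course as a block it was -0.47 (adjusted p = 0.116). It also lost its call without sae2Δ tel1Δ replicate 1 (-0.76), 2 (-0.88) or 4 (-0.91) and without sae2Δ ndt80Δ tel1Δ replicate 3 (-0.79) or 5 (-0.81). The difference on loss of Ndt80 with Tel1 present was -0.93 ± 0.28 (adjusted p = 0.248). Without sae2Δ ndt80Δ replicate 2, the highest of its genotype, that difference was -1.33 (adjusted p = 0.0157) and the one on loss of Tel1 without Ndt80 was 1.02 (adjusted p = 0.00622), both past the threshold. The paper's Southern blots measured instead the fraction of DNA cut, with DSB I and DSB II summed. On loss of Ndt80 without Tel1 that fraction was higher, the opposite direction to the share of reads. With a probe near the chromosome end the paper's increase was not significant.

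DSB II and the left *leu2*::*hisG* peak, which share their reads, were 1.86 and 1.82 times as strong without Tel1 when Ndt80 was present. DSB II had 1941, 1675, 1899, 1752 and 1916 RPM in sae2Δ and 3776, 3365, 3583 and 2906 in sae2Δ tel1Δ. In sae2Δ ndt80Δ it had 994, 1839, 1613 and 3623, and in sae2Δ ndt80Δ tel1Δ 2820, 2693, 2385, 1920 and 4685. The replicates with and without Tel1 did not overlap when Ndt80 was present, and in both ndt80Δ genotypes the replicate of time course 17 was the highest. DSB II rose by 0.89 ± 0.29 on the log2 scale on loss of Tel1 with Ndt80 (adjusted p = 0.0185, edgeR) and the left peak by 0.86 ± 0.30 (adjusted p = 0.0306). Without sae2Δ tel1Δ replicate 1 the DSB II value was 0.84 and no longer passed the threshold (adjusted p = 0.0539). The left peak lost its call, at 0.83 to 0.87, without any 1 of sae2Δ replicates 2, 3, 5 and 7 and sae2Δ tel1Δ replicates 1, 2 and 3. Loss of Tel1 without Ndt80 gave 0.52 ± 0.29 for DSB II (adjusted p = 0.188) and 0.41 ± 0.31 for the left peak (adjusted p = 0.339). Both passed without sae2Δ ndt80Δ replicate 4, at 0.97 (adjusted p = 0.00911) and 0.90 (adjusted p = 0.0172).

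Loss of Ndt80 gave DSB II a difference of 0.14 with Tel1 (adjusted p = 0.906) and -0.23 without it (adjusted p = 0.600). The former turned to -0.31 without sae2Δ ndt80Δ replicate 4 and to -0.37 without the time courses. Summing DSB II with the left peak as 1 hotspot changed none of the 4 calls. Over the control's DSB II there were 75.2 RPM, 0.724 times its background. That strain carries ndt80Δ::*LEU2*, but its Spo11 is catalytically inactive, so this level cannot show whether that copy adds Spo11 ends.

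The right *leu2*::*hisG* peak, which lies mostly outside the mirrored sequence, rose on loss of Tel1 both with and without Ndt80. Its sae2Δ replicates had 1537, 2082, 1787, 2348 and 1928 RPM and its sae2Δ tel1Δ replicates 5260, 4801, 4113 and 4471, with no overlap. Its sae2Δ ndt80Δ replicates had 889, 2184, 1079 and 791, and its sae2Δ ndt80Δ tel1Δ replicates 3415, 4087, 2323, 2039 and 2458, where only sae2Δ ndt80Δ replicate 2 lay within the range of the other group. With Ndt80 the rise was 2.41-fold (log2 1.27 ± 0.27, adjusted p = 0.000991) and without Ndt80 2.32-fold (log2 1.21 ± 0.28, adjusted p = 0.00307, edgeR). Fitted on the ndt80Δ genotypes alone, the latter kept its size but had an adjusted p of 0.0666. Loss of Ndt80 gave -0.65 ± 0.27 with Tel1 (adjusted p = 0.387) and -0.70 ± 0.27 without it (adjusted p = 0.0704). The former passed without sae2Δ ndt80Δ replicate 2 (-1.07, adjusted p = 0.0267) and the latter without sae2Δ ndt80Δ tel1Δ replicate 2 (-0.87, adjusted p = 0.0401).

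The remaining hotspots were far weaker. The edge peak had 170 to 210 RPM in sae2Δ and 259 to 540 in sae2Δ tel1Δ, and rose by 0.83 ± 0.28 on the log2 scale (adjusted p = 0.0265, edgeR), or by 0.52 without sae2Δ tel1Δ replicate 1 (adjusted p = 0.198), and it also lost its call without sae2Δ replicate 3 (0.81) or 5 (0.79). The middle hotspot had a mean of 24.2 ± 3.94 RPM in sae2Δ and 78.0 ± 38.8 in sae2Δ tel1Δ and rose by 1.69 ± 0.47 (edgeR, adjusted p = 0.00798). Without sae2Δ tel1Δ replicate 1 it rose by 1.33 (adjusted p = 0.0516). In RPM the sae2Δ mean was below the 25.1 of the control, whose background was higher. Against the background of their own library, sae2Δ replicates were at 3.06 to 8.66 times and the control at 1.16 times. The middle and edge hotspots both hold mirrored sequence. On loss of Ndt80 with Tel1 the middle hotspot was not called. It was higher by 1.45 without the time courses (edgeR, adjusted p = 2.3e-07), from sae2Δ ndt80Δ replicates 1 and 2, the former of high background. With the time courses as a block it was higher by 1.61 (adjusted p = 2.9e-11). The template was called on the ndt80Δ genotypes alone, so this weak hotspot could enter it through its level there.

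**Figure D3:**
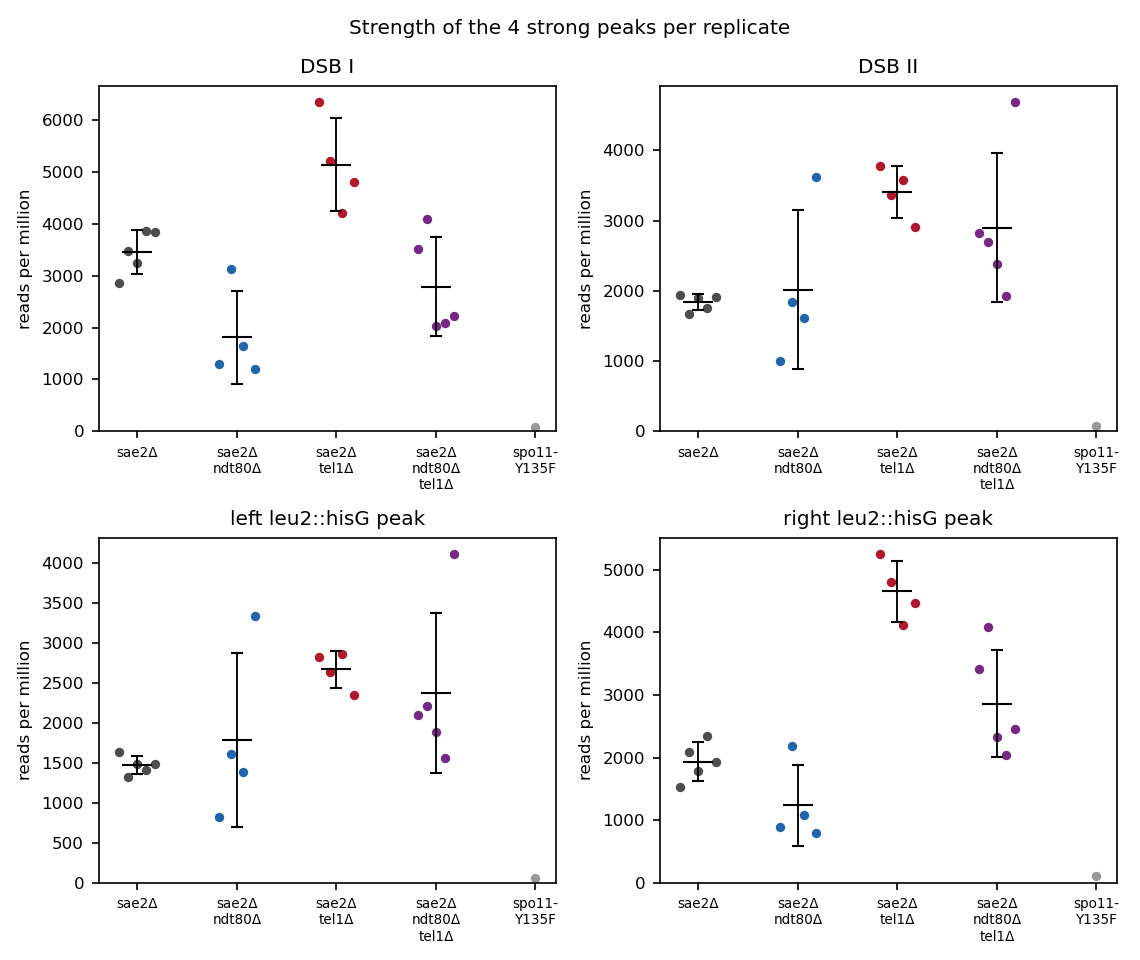
RPM, scaled to nuclear reads outside the rDNA, in each replicate (points) of the 4 strong peaks, with mean and SD (bars) and the single control library. All sae2Δ tel1Δ points of each peak lie above all sae2Δ points, and the highest sae2Δ ndt80Δ point of DSB II, 3623, is time course 17.

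With Ndt80, 5 of the 6 hotspots rose on loss of Tel1 and none fell, where 3.56% of all hotspots rose and 28.9% fell. Those 5 include DSB II and the left *leu2*::*hisG* peak, whose cores share their reads, and the middle and edge hotspots, which hold mirrored sequence. Counts out of the 6 are therefore not counts of separate members. Without Ndt80, 1 of the 6 rose, against 10.4% of all hotspots, and none fell, against 12.7%. On loss of Ndt80 without Tel1, 1 of the 6 fell, against 2.19%, and none rose, against 14.0%. Loss of Ndt80 with Tel1 had no call among the 6 and 0% of all hotspots called by edgeR in either direction, where 49 were higher and 318 lower at an unadjusted p under 0.05 and DESeq2 called 69 higher and 48 lower. The neighbourhood moved too: of the 22 other template hotspots of the left part of chromosome III, 6 rose and none fell on loss of Tel1 with Ndt80 (median log2 0.60, against -0.39 for all hotspots), and 3 rose and none fell without Ndt80 (median 0.35, against 0.00).

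Comparisons share their control samples, so these counts are not independent of each other. Read totals also set the level of all hotspots: with the hotspot total as library size the median of all hotspots on loss of Tel1 with Ndt80 was -0.11, with 537 higher and 901 lower in place of 117 and 952, and with TMM factors 820 and 839. Without Ndt80 the same counts were 343 and 419, 449 and 964, and 804 and 816. On loss of Ndt80 without Tel1 they were 461 and 72, 653 and 355, and 697 and 519. The interaction of both deletions was called for none of the 6 hotspots (edgeR, adjusted p 0.549 to 0.968, unadjusted p under 0.05 for 0) and for 2 of them by DESeq2, where edgeR called 0.152% of all hotspots higher and none lower. With TMM factors 1 of the 6 was called, and 1 with the time course block, so whether effects of Tel1 loss differed with and without Ndt80 depended on the fit.

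Ratios between neighbouring peaks do not depend on library size. DSB I was 1.47 to 2.21 times DSB II in the sae2Δ replicates and 1.18 to 1.68 times in sae2Δ tel1Δ. Ratios of 1.30, 1.70, 1.02 and 0.329 were found in sae2Δ ndt80Δ and of 1.25, 1.52, 0.854, 1.09 and 0.474 in sae2Δ ndt80Δ tel1Δ, so DSB II exceeded DSB I in 1 of 4 and 2 of 5 replicates, including both of time course 17. The mean log2 ratio was 0.91 ± 0.24, -0.11 ± 1.04, 0.59 ± 0.24 and -0.05 ± 0.65 in sae2Δ, sae2Δ ndt80Δ, sae2Δ tel1Δ and sae2Δ ndt80Δ tel1Δ (SD, n = 5, 4, 4 and 5).

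Loss of Ndt80 with Tel1 lowered this ratio by 1.01 (exact permutation test, two-sided, p = 0.0159, adjusted p = 0.0423 over 16 ratio tests). The groups overlapped, and without sae2Δ ndt80Δ replicate 4 the difference was -0.51 (adjusted p = 0.143). Without the time courses it was -0.33, from 2 replicates of sae2Δ ndt80Δ and with no test. The other 3 comparisons had adjusted p of 0.143 to 0.974. Within time course 10 the ratio without Tel1 was 0.10 log2 units above that with Tel1 in ndt80Δ cells, within time course 17 0.53 above, and outside the time courses 0.11 below.

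The total of the *HIS4*::*LEU2* region exceeded that of the *leu2*::*hisG* region in all Spo11-active replicates, with a log2 ratio of 0.53 to 0.68 in sae2Δ, 0.20 to 0.37 in sae2Δ ndt80Δ, 0.13 to 0.27 in sae2Δ tel1Δ and 0.03 to 0.18 in sae2Δ ndt80Δ tel1Δ. The mean ratio was 1.49 in sae2Δ and 1.24, 1.13 and 1.06 in the other genotypes in that order, and both totals include the mirrored reads. The difference from sae2Δ was -0.26 on loss of Ndt80 and -0.39 on loss of Tel1, and loss of Tel1 without Ndt80 gave -0.23, each with no overlap of replicates (exact permutation test, p = 0.00794, adjusted p = 0.0317; 0.00794 is the smallest p that 5 against 4 replicates can give). With 1 replicate left out, differences called by this test, here and for the shapes below, kept their direction in all 207 fits, but 193 no longer passed, where the smallest p is 0.0179 or 0.0286. Loss of Ndt80 without Tel1 gave -0.09 (adjusted p = 0.143). In ndt80Δ cells the difference on loss of Tel1 was -0.23 within time course 10, -0.17 within time course 17 and -0.22 outside them.

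Against the other 77 hotspots of chromosome III, the *leu2*::*hisG* region rose in 2 of the 4 comparisons and the *HIS4*::*LEU2* region was called in none. The mean log2 ratio of the *leu2*::*hisG* region was -2.15 ± 0.06 in sae2Δ, -1.89 ± 0.12 in sae2Δ ndt80Δ, -1.65 ± 0.02 in sae2Δ tel1Δ and -1.73 ± 0.24 in sae2Δ ndt80Δ tel1Δ. It was 0.49 higher on loss of Tel1 (adjusted p = 0.0317, exact permutation test) and 0.26 higher on loss of Ndt80 (adjusted p = 0.0423), both against sae2Δ. Loss of Tel1 without Ndt80 gave 0.16 (adjusted p = 0.349), with -0.012 within time course 10, 0.046 within time course 17 and 0.31 outside them, and loss of Ndt80 without Tel1 gave -0.073 (adjusted p = 0.723). For the *HIS4*::*LEU2* region the 4 means lay between -1.64 and -1.47 and the adjusted p between 0.165 and 0.976.

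**Figure D4:**
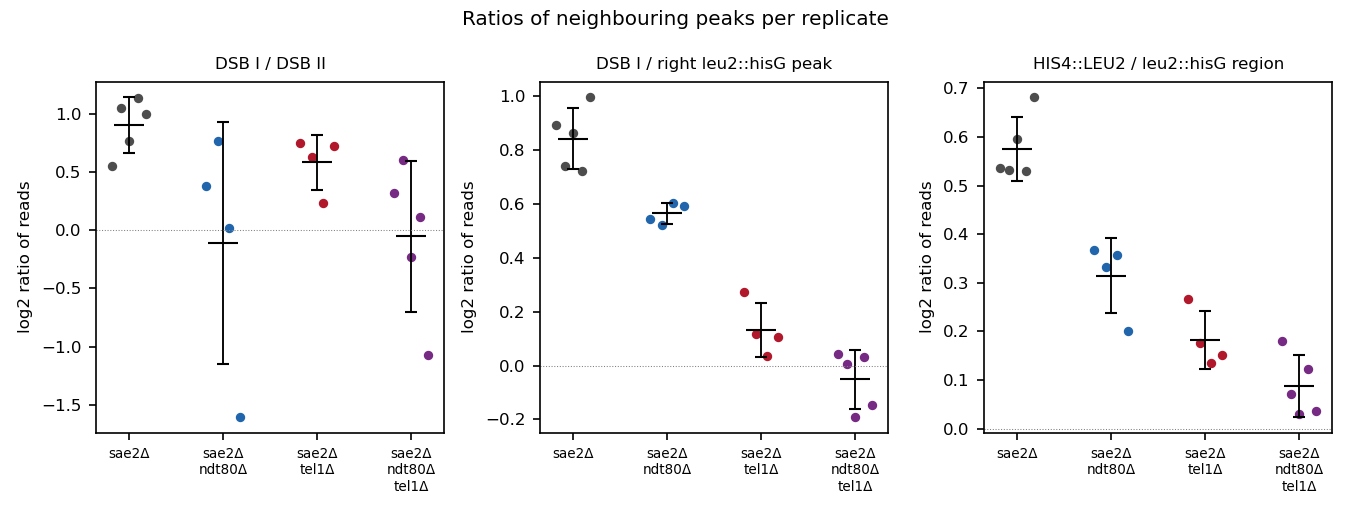
Log2 ratios per replicate (points) with mean and SD (bars) for DSB I over DSB II, DSB I over the right *leu2*::*hisG* peak, and the *HIS4*::*LEU2* over the *leu2*::*hisG* region, each dotted line marking equality. The first ratio spreads most in the ndt80Δ genotypes, down to -1.60, while the others have SDs of 0.04 to 0.11.

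DSB I and the right *leu2*::*hisG* peak, the pair with little mirrored sequence, were compared after the values had been seen. DSB I was 1.65 to 1.99 times the right peak in sae2Δ, 1.43 to 1.52 times in sae2Δ ndt80Δ, 1.03 to 1.21 times in sae2Δ tel1Δ and 0.877 to 1.03 times in sae2Δ ndt80Δ tel1Δ. The log2 difference was -0.28 on loss of Ndt80 with Tel1, -0.71 on loss of Tel1 with Ndt80 and -0.62 on loss of Tel1 without Ndt80, with no overlap (exact permutation test, adjusted p = 0.0212 each over 8 tests). The fourth comparison gave -0.18 (adjusted p = 0.0635).

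Strand balance differed between the peaks and changed on loss of Tel1 but was not called on loss of Ndt80. In DSB II the percentage of Watson ends was 41.2, 39.6, 41.0, 37.9 and 42.4 in sae2Δ, 38.05, 34.8, 37.6 and 39.9 in sae2Δ ndt80Δ, 51.9, 51.9, 50.7 and 54.5 in sae2Δ tel1Δ and 55.6, 54.5, 53.5, 53.6 and 56.7 in sae2Δ ndt80Δ tel1Δ. Every replicate without Tel1 was above every replicate with it. The differences were 11.8 percentage points with Ndt80 and 17.2 without (exact permutation test, p = 0.00794, adjusted p = 0.0317 over 12 tests). Within time courses 10 and 17 and outside them the latter was 15.9, 16.8 and 18.6 points. In the mirrored left *leu2*::*hisG* peak the Watson percentage went the opposite way, with means of 66.0, 66.3, 57.3 and 53.2 in sae2Δ, sae2Δ ndt80Δ, sae2Δ tel1Δ and sae2Δ ndt80Δ tel1Δ. Because the cores of both peaks were listed with nearly equal counts on opposite strands, this is not a separate observation. For the same reason the Watson percentage of the DSB II core cannot be assigned to either site.

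The right *leu2*::*hisG* peak was rich in Watson ends, with 74.2% to 77.4% in sae2Δ, 71.4% to 81.6% in sae2Δ ndt80Δ, 64.9% to 69.7% in sae2Δ tel1Δ and 62.0% to 70.0% in sae2Δ ndt80Δ tel1Δ. On loss of Tel1 it fell by 8.32 points with Ndt80 (adjusted p = 0.0317) and fell by 10.6 points without (adjusted p = 0.0381, exact permutation test), and replicates did not overlap. Counted only in a fixed window around the summit, which leaves out the far left of the peak, the differences were -2.84 and -1.23 points and did not pass. DSB I had more Crick than Watson ends in all Spo11-active replicates, with a Watson mean of 42.0% ± 2.29 in sae2Δ, 42.4% ± 2.15 in sae2Δ ndt80Δ, 37.2% ± 1.63 in sae2Δ tel1Δ and 37.8% ± 4.52 in sae2Δ ndt80Δ tel1Δ. Loss of Tel1 with Ndt80 gave -4.80 points with no overlap (adjusted p = 0.0381), and without Ndt80 -4.66 points with overlap (adjusted p = 0.202). Loss of Ndt80 had adjusted p of 0.122 to 0.984 over the 3 peaks. Control shares of Watson ends were 43.8%, 37.0% and 54.1% at DSB I, DSB II and the right peak, the background measured the same way, with 95% Wilson intervals of 37.4% to 50.5%, 30.9% to 43.7% and 48.7% to 59.4%, which cover counting error only.

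**Figure D5:**
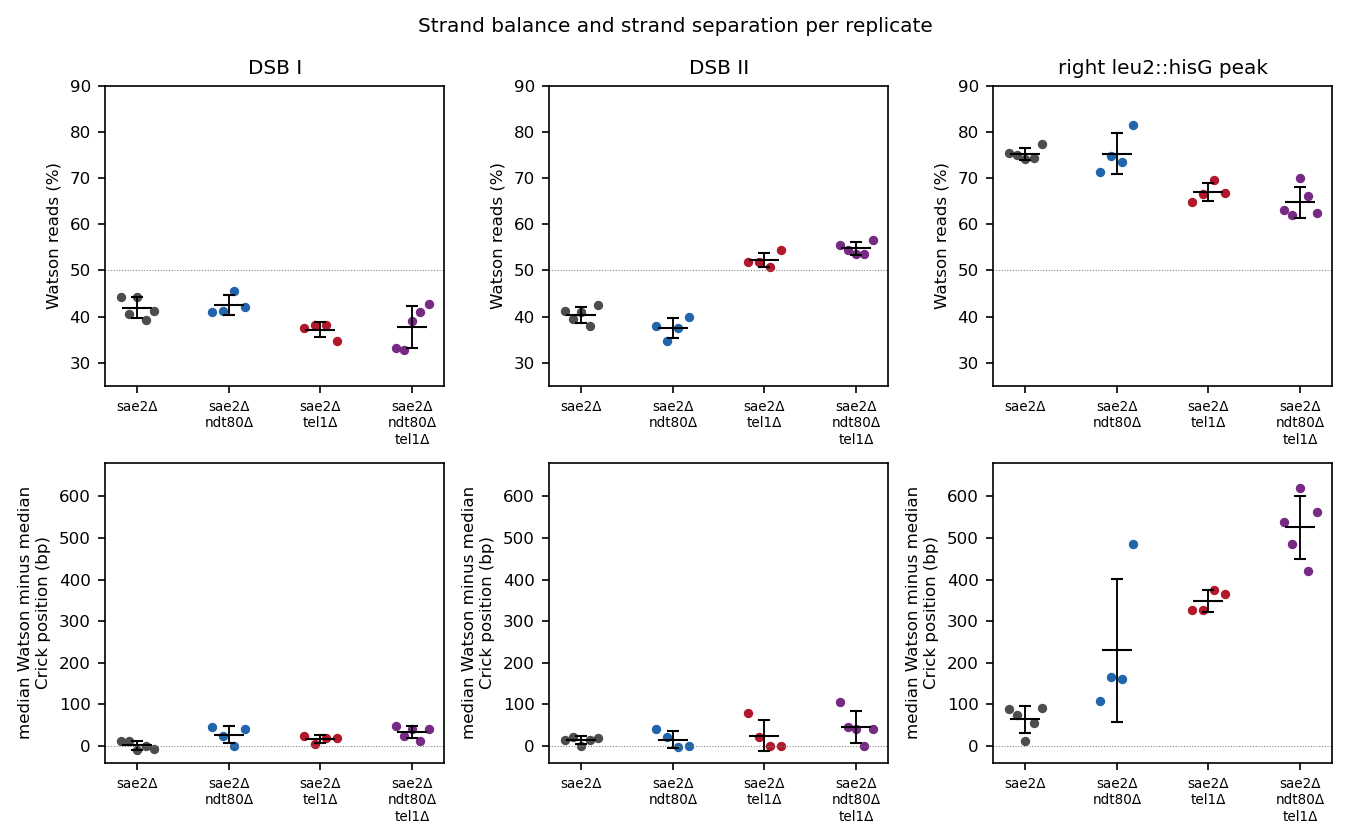
Percentage of Watson ends (top) and distance from the median Crick to the median Watson position in bp (bottom) per replicate (points), with mean and SD (bars), for DSB I, DSB II and the right *leu2*::*hisG* peak. The tel1Δ replicates of DSB II lie above 50% and all others below it, and the right peak's separation reaches 620 bp.

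The flanks of the peaks were compared by strand, as a description. More than 100 bp to the right of the DSB II summit, Watson ends had a mean of 222 ± 7.26 RPM in sae2Δ and 719 ± 156 in sae2Δ tel1Δ, while Crick ends had 188 ± 11.4 and 256 ± 44.1. In ndt80Δ cells Watson ends there had means of 186 and 589 and Crick ends of 156 and 177. Each tel1Δ replicate had 70.3% or more Watson ends on this flank and each *TEL1* replicate 58.7% or less. The nearer part of this flank, up to 68299, is mirrored at the left *leu2*::*hisG* peak. Its Crick ends were listed about equally at both sites, so values of this flank do not belong to DSB II alone.

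The left side of the right *leu2*::*hisG* peak showed the reverse strand. More than 100 bp left of its summit, Crick ends had 195 to 326 RPM in sae2Δ and 950 to 1290 in sae2Δ tel1Δ, and Watson ends 488 to 823 and 843 to 1178. In sae2Δ ndt80Δ tel1Δ Crick ends (522 to 1275) outnumbered Watson ends (199 to 649) in all 5 replicates. The Watson percentage on this flank thus had a mean of 72.7, 65.3, 47.7 and 31.1 in sae2Δ, sae2Δ ndt80Δ, sae2Δ tel1Δ and sae2Δ ndt80Δ tel1Δ, and to the right of the summit of 74.9, 79.9, 82.0 and 88.3. Left of DSB I, Crick ends had means of 155, 205, 479 and 447 RPM. The flank values were not tested.

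Separation of the strands followed the same order in the right *leu2*::*hisG* peak. Its median Watson end lay to the right of its median Crick end by 12 to 91 bp in sae2Δ, by 109, 167, 161 and 485 bp in sae2Δ ndt80Δ, by 326 to 376 bp in sae2Δ tel1Δ and by 420 to 620 bp in sae2Δ ndt80Δ tel1Δ. Against sae2Δ the mean was 166 bp higher without Ndt80 and 284 bp higher without Tel1, with no overlap (exact permutation test, adjusted p = 0.0476 each over 12 tests), and the first was 81.7 bp without sae2Δ ndt80Δ replicate 4. The remaining differences, 295 bp on loss of Tel1 without Ndt80 and 177 bp on loss of Ndt80 without Tel1, had adjusted p of 0.0714 and 0.0635. At DSB I and DSB II the group means lay between 1.60 and 46.6 bp, with adjusted p of 0.0952 to 0.976.

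Width was taken from the 10th to the 90th percentile of end positions. At DSB I it was 97.0 to 116 bp in sae2Δ, 112 to 425 bp in sae2Δ ndt80Δ, 109 to 230 bp in sae2Δ tel1Δ and 131 to 355 bp in sae2Δ ndt80Δ tel1Δ. No comparison of DSB I widths passed (adjusted p 0.0680 to 0.992). The widest DSB I of sae2Δ ndt80Δ, 425 bp, belonged to replicate 1, the library with the highest background of the Spo11-active set, and the mean difference from sae2Δ on loss of Ndt80, 115.6 bp, was 103.6 bp with background taken off (adjusted p = 0.0635) and 69.1 bp without the 3 high-background libraries, with no test. Bases within 100 bp of the summit held 92.2% ± 1.66 of the DSB I reads in sae2Δ, 80.9% ± 12.9 in sae2Δ ndt80Δ, 85.9% ± 5.85 in sae2Δ tel1Δ and 76.9% ± 9.94 in sae2Δ ndt80Δ tel1Δ.

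The right *leu2*::*hisG* peak was 573 to 630 bp wide in sae2Δ, 631 to 752 bp in sae2Δ ndt80Δ, 674 to 737 bp in sae2Δ tel1Δ and 729 to 879 bp in sae2Δ ndt80Δ tel1Δ. It was wider than in sae2Δ by 60.1 bp on loss of Ndt80 and by 91.8 bp on loss of Tel1 (exact permutation test, adjusted p = 0.0317 each), and from the 5th to the 95th percentile both had an adjusted p of 0.0952. Without sae2Δ ndt80Δ replicate 1 the former was 32.6 bp. DSB II was 775 to 805 bp wide in sae2Δ and 478 to 745 bp in sae2Δ tel1Δ, 209 bp narrower (adjusted p = 0.0317). That direction turned to 66.7 bp wider (adjusted p = 0.0476) in a fixed window around the summit, which leaves out the outlying right sub-peak.

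Sub-peaks, the maxima of the smoothed profile, numbered 1 in DSB I and in the left *leu2*::*hisG* peak, 3 in DSB II and 8 in the right *leu2*::*hisG* peak. With a 21 bp window DSB II had 1 and the right peak 8, which divide it at other places. The second of DSB II lay 148 bp and the third 787 bp to the right of its summit. The second lies partly in sequence mirrored at the left *leu2*::*hisG* peak, so its ends cannot be fully assigned to DSB II. The second held 8.09% to 9.80% of the DSB II reads in sae2Δ and 14.1% to 20.03% in sae2Δ tel1Δ, and the third held 11.2% to 13.3% and 8.46% to 10.7%. Both differences, 7.12 and -2.50 points, passed (exact permutation test, adjusted p = 0.0437 over 44 tests), with no overlap. In ndt80Δ cells the second held 8.42% ± 4.31 with Tel1 and 15.2% ± 5.22 without, and the groups overlapped (adjusted p = 0.137).

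The summits of the 8 sub-peaks of the right *leu2*::*hisG* peak spanned 672 bp to the left and 210 bp to the right of the highest. The leftmost held 1.73% to 2.18% of the reads in sae2Δ and 3.57% to 6.14% in sae2Δ tel1Δ (difference 2.66 points, adjusted p = 0.0437), and 4.51% to 10.3% in sae2Δ ndt80Δ tel1Δ. The fifth, 138 bp left of the highest, held 22.1% to 28.1% in sae2Δ and less in each other genotype: 11.9% to 21.1% in sae2Δ ndt80Δ, 17.2% to 19.0% in sae2Δ tel1Δ and 6.94% to 12.4% in sae2Δ ndt80Δ tel1Δ. It fell by 5.95 points on loss of Ndt80, by 5.83 on loss of Tel1 and by 8.08 on loss of Ndt80 without Tel1 (exact permutation test, adjusted p = 0.0437 each). With 21 bp smoothing the sub-peak with the nearest summit was a narrower stretch, 95841 to 95873, with its summit 99 bp left of that of the whole peak. Its differences on loss of Ndt80 (-1.06, adjusted p = 0.244) and of Tel1 (-0.92, adjusted p = 0.0556) did not pass. Without the 3 high-background libraries the difference of the fifth on loss of Ndt80 without Tel1 was -8.70 (adjusted p = 0.0524). The leftmost sub-peak carried 39.5% to 54.5% Watson ends in sae2Δ and 10.4% to 19.5% in sae2Δ ndt80Δ tel1Δ, whereas the seventh, 109 bp right of the highest, carried 77.7% to 82.7% and 88.7% to 94.8%.

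Single bases carried much of the compact peaks. The Watson base 65745 held 28.5% ± 2.59 of the Watson ends of DSB I in sae2Δ and the Crick base 65746 held 23.0% ± 3.25 of its Crick ends. The strongest bases of DSB II were offset the same way, Watson 67954 (21.3% ± 2.48) and Crick 67955 (20.6% ± 1.03). A Crick base 1 bp to the right of each Watson base was also the best alignment of the strands over whole peaks: among shifts tried, 1 bp gave the highest correlation in all 4 strong peaks and 4 genotypes, at 0.52 to 0.77 across 798 to 1432 bases, which are not independent replicates. The 5 strongest bases of each strand together held 43.9% ± 2.32 of DSB I, 43.5% ± 2.55 of DSB II and 52.0% ± 2.26 of the left peak in sae2Δ, but 11.6% ± 0.82 of the right *leu2*::*hisG* peak.

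Crick base 65746 of DSB I held 12.5% ± 1.35 in sae2Δ ndt80Δ, 18.4% ± 3.27 in sae2Δ tel1Δ and 12.6% ± 1.42 in sae2Δ ndt80Δ tel1Δ. In the right peak, Crick base 95411 on its left side held 1.70% ± 0.19 of Crick ends in sae2Δ and 6.33% ± 2.96 in sae2Δ ndt80Δ tel1Δ. These bases were chosen from the mean profile and were not tested.

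Between the peaks ends were few. The 683 bp from DSB I to the middle hotspot held 2.99 ± 0.91, 4.26 ± 1.93, 4.24 ± 2.18 and 10.5 ± 8.38 times the long-gene background in sae2Δ, sae2Δ ndt80Δ, sae2Δ tel1Δ and sae2Δ ndt80Δ tel1Δ, and 0.980 times in the control. In RPM the same stretch held 36.7 ± 3.60, 68.2 ± 38.6, 82.0 ± 23.6 and 75.4 ± 47.5, against 52.2 in the control, so the order of the genotypes depends on the background taken as the unit. The 443 bp between the left and right *leu2*::*hisG* peaks held 1.97, 2.57, 3.85 and 8.95 times, against 1.14 in the control, and 15.9, 32.0, 47.5 and 45.2 RPM, against 39.4. The 1815 bp left of *leu2*::*hisG* held 0.844 to 1.25 times background in the same 4 genotypes.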

How the data were processed

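The authors aligned paired-end CC-seq reads with Bowtie2, through their TermMapper scripts, to SacCer3H4L2, and deposited raw counts of Read 1 ends per base on each strand. Versions, mapping-quality filters and duplicate removal were not given in the sources used here. The control lists each chromosome in 2 successive blocks, and only the first was used.

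Libraries with the same replicate number were summed. A template of 3290 hotspots was called on 201 bp smoothed averages of the ndt80Δ genotypes taking stretches at or above 0.193 HpM (RPM of a single base), at least 25 bp and 25 reads, and gaps under 200 bp merged. RPM are scaled to nuclear reads outside the rDNA. Background came from 55 genes over 5500 bp. Hotspot counts of 18 replicates were fitted together with edgeR 4.0.16 in R 4.3.3 (glmQLFit, glmQLFTest), with that total as library size, and adjusted by Benjamini-Hochberg over all hotspots at 0.05. Another fit used DESeq2 1.42.0. Ratios and shapes, 1 value a replicate, were compared by two-sided exact permutation tests and adjusted over families of 4 to 44 tests, with smallest p 0.00794 for 5 against 4. Sub-peaks are maxima of a 51 bp Hann profile of at least 10% of the summit and 100 bp apart. Other steps ran in Python 3.11.15 (scipy 1.17.1, pandas 2.3.3, numpy 2.4.6), with figures drawn in matplotlib 3.10.9.

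Hotspots were named by position in the regions, and DSB I, DSB II and the right peak are their strongest. The members, lists and tests were chosen with earlier results of these data known. The time course block, the sums over mirrored peaks, the ratio of DSB I to the right peak, the fits without mirrored sequence or without the 3 high-background libraries, and background-adjusted widths were added after the data were seen. Time courses were read from the names of the deposited libraries. On simulated counts for loss of Ndt80 with Tel1, 73 of 200 hotspots changed by a log2 of 1 among 3290 were recovered, with 2 false calls. On simulated shifts of 3 SD, 191 of 200 had an unadjusted permutation p under 0.05, and 14 of 200 without a shift. Alternatives were other scalings, windows, percentiles and smoothing, each replicate left out, and blocks.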

Additional observations from a re-analysis of the deposited data

Results flagged for a closer look

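Of 112 groups of 4 or 5 replicates examined, 7 held a replicate far from the others, where chance alone gives about 1 in 20, or 5.6 groups. sae2Δ ndt80Δ tel1Δ replicate 5, of time course 17, had 4118 RPM in the left *leu2*::*hisG* peak, where the others had 1563 to 2207. sae2Δ tel1Δ replicate 1 had 540 RPM in the edge peak against 259 to 297. In sae2Δ tel1Δ replicate 4, DSB I had 34.7% Watson ends against 37.6% to 38.2%. The median Watson and Crick ends of the right *leu2*::*hisG* peak were 485 bp apart in sae2Δ ndt80Δ replicate 4, of time course 17, against 109 to 167 bp. Of the same peak's reads, sae2Δ ndt80Δ replicate 1 had 4.37% in the first sub-peak against 2.09% to 2.24%, sae2Δ replicate 1 had 9.12% in the second against 10.6% to 11.2%, and sae2Δ replicate 7 had 28.1% in the fifth against 22.1% to 23.2%.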

How the results depend on the processing

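Of 1512 alternative values, 1157 were counted as unchanged. Those with a test kept their direction and side of the threshold. Those without a test moved by less than the larger SD of the groups, and for the interaction the number of calls stayed the same. Loss of Tel1 with Ndt80 changed DSB I by 0.57 on the log2 scale (adjusted p = 0.107), and it passed at 0.86 with the hotspot total as library size, 0.99 with TMM factors, 0.99 with DESeq2, 0.58 with only the genotypes compared, 0.61 with every library as its own replicate, 0.57 without the numbered time courses and 0.57 with the time course as a block. For loss of Tel1 without Ndt80, DSB I passed at 0.78 without the time courses and 0.70 with the block, the middle hotspot at 1.10 and 0.79, the edge peak at 0.81 with the block, and DSB II at 0.59 with TMM factors, 0.59 with DESeq2, 0.96 without the time courses and 0.64 with the block, while the right *leu2*::*hisG* peak lost its call with only the genotypes compared (1.21, adjusted p = 0.0666).

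Loss of Ndt80 without Tel1 lost its call at DSB I without the time courses (-0.43) and with them as a block (-0.47). It gained one at DSB II under the hotspot total (-0.46), TMM factors (-0.50) and DESeq2 (-0.52), and at the right peak under the hotspot total (-0.89), TMM (-0.88), DESeq2 (-0.90) and every library as a replicate (-0.74). It turned at the middle hotspot to -0.094 (hotspot total), -0.046 (TMM), -0.046 (DESeq2), -0.0091 (replicate block) and -0.11 (every library), but was called at 0.86 without the time courses (adjusted p = 0.0017) and 0.71 with the block (adjusted p = 0.0029), and at the edge peak to 0.045 without the time courses and 0.11 with the block. Loss of Ndt80 with Tel1 was called at DSB I with the time course block (-0.60) and at the middle hotspot without the time courses (1.45) and with the block (1.61), turned at DSB II to -0.37 without the time courses and -0.20 with the block, at the left peak to -0.28 and -0.12, and at the edge peak to 0.19 (hotspot total), 0.13 (TMM), 0.11 (DESeq2), 0.21 (without the time courses) and 0.14 (block). An interaction was called for 1 hotspot with TMM, 2 with DESeq2 and 1 with the time course block.

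DSB I over DSB II on loss of Ndt80 with Tel1 did not pass in the other window (-1.06, adjusted p = 0.0508) or over the sum with the left peak within the 16 tests (-1.07, adjusted p = 0.0635), nor did the *leu2*::*hisG* region over the other hotspots in the other window (0.20). The *HIS4*::*LEU2* region over the other hotspots turned to 0.0090 with background subtracted for the same loss, and the *leu2*::*hisG* region to 0.011 without the 3 high-background libraries for loss of Ndt80 without Tel1. In the fixed window the Watson percentage of DSB I (-4.70 points) and of the right peak (-2.84 with Ndt80, -1.23 without) did not pass on loss of Tel1, and that of the right peak turned to 3.88 on loss of Ndt80 without Tel1. Outside mirrored sequence, loss of Ndt80 gave DSB I -0.70 with Tel1 and -1.28 without, and the right peak -0.20 with Tel1. For DSB I without Tel1 it gave -4.13 without the time courses and -0.21 without the 3 libraries.

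DSB II width on loss of Tel1 with Ndt80 was -6.75 bp from the 5th to the 95th percentile and 66.7 bp in the fixed window. On loss of Ndt80 it turned to 52.2 and 28.4 bp with Tel1 and to 23.9 and 4.15 bp without, and on loss of Tel1 without Ndt80 to 42.4 bp in the window and 18.5 bp with background taken off. DSB I width for that comparison turned to 29.2 bp (5th to 95th) and 7.25 bp (background). The right peak lost its calls on loss of Ndt80 with Tel1 at 89.2 bp (5th to 95th), 23.6 bp (window) and 51.2 bp (background), and on loss of Tel1 at 96.9 bp. Its strand separation lost them in the window at 48.3 and 167 bp, and that of DSB II on loss of Ndt80 with Tel1 turned to -0.20 bp with background taken off.

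Leaving out each replicate in turn gave the following ranges. On the log2 scale, loss of Ndt80 with Tel1 spanned -1.33 to -0.77 at DSB I, -0.31 to 0.36 at DSB II, -0.21 to 0.52 at the left peak and -1.07 to -0.48 at the right peak. Loss of Tel1 spanned 0.84 to 0.96 at DSB II with Ndt80, and 0.44 to 1.02 at DSB I and 0.28 to 0.97 at DSB II without. Loss of Ndt80 without Tel1 spanned -1.06 to -0.76 at DSB I, -0.39 to 0.44 at the middle hotspot and -0.87 to -0.60 at the right peak. DSB I over DSB II spanned -1.31 to -0.51 on loss of Ndt80 with Tel1 and -0.44 to 0.35 on loss of Tel1 without Ndt80. The region ratio spanned -0.28 to -0.22 on loss of Ndt80, -0.42 to -0.37 on loss of Tel1 and -0.26 to -0.21 on loss of Tel1 without Ndt80. Against the other hotspots, the *leu2*::*hisG* region spanned 0.21 to 0.31 (loss of Ndt80), 0.48 to 0.52 (loss of Tel1) and -0.14 to 0.011 (loss of Ndt80 without Tel1), and the *HIS4*::*LEU2* region -0.063 to 0.038 (loss of Ndt80) and -0.15 to 0.012 (loss of Tel1 without Ndt80).

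In percentage points of Watson ends, loss of Tel1 with Ndt80 spanned -5.49 to -3.99 at DSB I, 11.1 to 12.4 at DSB II and -9.21 to -7.61 at the right peak, and without Ndt80 16.2 to 17.96 at DSB II and -11.9 to -8.53 at the right peak. Loss of Ndt80 spanned -0.57 to 1.07 (with Tel1) and -0.62 to 1.86 (without) at DSB I and -2.02 to 1.38 (with Tel1) at the right peak. Widths in bp spanned -263 to -174 (DSB II) and 79.9 to 100.9 (right peak) on loss of Tel1 with Ndt80, 32.6 to 72.9 (right peak) on loss of Ndt80 with Tel1, and -37.1 to 67.3 (DSB I) and -129 to 109 (DSB II) on loss of Tel1 without Ndt80. Strand separations in bp spanned 81.7 to 207 (loss of Ndt80) and 272 to 292 (loss of Tel1) at the right peak, -8.40 to 5.93 (loss of Ndt80 with Tel1) and -7.73 to 19.3 (loss of Tel1 with Ndt80) at DSB II, and -3.67 to 11.3 at DSB I (loss of Tel1 without Ndt80). DSB II sub-peaks spanned -1.06 to 0.53 (the third, loss of Tel1 without Ndt80), -2.33 to 1.16 (second, loss of Ndt80 with Tel1) and -2.85 to 0.67 (second, loss of Ndt80 without Tel1) points. With 21 bp smoothing, sub-peaks of the right peak were matched to those above by the nearest summit. Calls were gained at 0.95 (matched to the first, loss of Ndt80), 6.46 (first, loss of Tel1 without Ndt80) and 4.72 (matched to the seventh, loss of Tel1) points, over other stretches. The cause of these changes was not tested.

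Replicate numbers did not pair the samples throughout: deviations of same-numbered replicates correlated at -0.30 to 0.77, with no comparison above 0.1 for every pair. Between sae2Δ ndt80Δ tel1Δ and sae2Δ ndt80Δ, replicates 1 and 2 correlated at 0.62 and 0.77. Replicates 3 and 4 of these genotypes, which come from different time courses, correlated at -0.20 and 0.015. With the replicate block the middle hotspot turned as given, the edge peak gained a call on loss of Tel1 without Ndt80 (0.79, adjusted p = 0.0471, edgeR), no other call changed, and over all hotspots the calls were 92 and 785 in place of 117 and 952 on loss of Tel1 with Ndt80 and 207 and 54 in place of 461 and 72 on loss of Ndt80 without Tel1.

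Over all hotspots, calls higher and lower on loss of Tel1 with Ndt80 numbered 117 and 952 by edgeR, 537 and 901 with the hotspot total, 820 and 839 with TMM, 850 and 871 by DESeq2, 464 and 1849 with only the genotypes compared, 209 and 1192 with every library, 315 and 1569 without the time courses, 328 and 1581 with them as a block, and 228 and 1332 without the 3 libraries. In the same order they were 343 and 419, 449 and 964, 804 and 816, 868 and 849, 53 and 103, 418 and 495, 700 and 575, 780 and 836, and 272 and 862 on loss of Tel1 without Ndt80, and 461 and 72, 653 and 355, 697 and 519, 718 and 601, 579 and 91, 725 and 153, 771 and 484, 731 and 561, and 1065 and 207 on loss of Ndt80 without Tel1. Loss of Ndt80 with Tel1 went from none called to 69 and 48 by DESeq2, 23 and 688 without the time courses and 32 and 844 with the block.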

Other observations

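The strongest hotspot near *ARE1* and the one near YCR061W, on the right arm of the same chromosome, were not called by edgeR in any comparison. On loss of Tel1 they changed by 0.32 and 0.50 on the log2 scale with Ndt80 and by 0.52 and 0.42 without. On loss of Ndt80 they changed by -0.75 and -0.49 with Tel1 and by -0.54 and -0.58 without. Of the 4 template hotspots between *HIS4*::*LEU2* and *leu2*::*hisG*, 2 rose on loss of Tel1 with Ndt80 (median log2 0.60) and none was called in the other 3 comparisons.

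Precision was limited by the number of replicates and by 3 libraries whose hotspots held 37.3% to 47.3% of their reads. The aligner's handling of repeated sequence and of duplicate reads was not given in the sources used here, and no genome of this build was used. The genotype differences include the numbered time courses, which only the ndt80Δ genotypes contain, so a series effect on comparisons across Ndt80 cannot be told apart from loss of Ndt80 except in the fits without them. Those fits keep 2 replicates of each ndt80Δ genotype.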
